A study of Mus musculus with 6 samples.

Results

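Peroxiredoxins and thioredoxins are the thiol-based peroxidases and reductants of the cell, and 10 of their genes were followed here in mouse endothelial cells: Prdx1, Prdx2, Prdx3, Prdx4, Prdx5, Prdx6, Txn1, Txn2, Txnrd1 and Txnrd2. Every non-control spot whose annotation names one of these genes was taken, which gave 10 genes of 36800, and 19 probes on 28 spots, of 55681 probes on 59305 spots in all. Of the 19, 15 were well above background on at least 1 array of each cell line according to the scanner software. Each of the 10 genes had at least 1 such probe. The array places each probe by chromosome and position, but the files do not name the genome build.

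The samples were 1G11-mock and 1G11-SOD3 cells, mouse microvascular endothelial lines of strain C57BL/6NCrLBR, of which the second overexpresses superoxide dismutase 3. SOD3 is the extracellular enzyme that turns superoxide into hydrogen peroxide, and hydrogen peroxide is the substrate of peroxiredoxins. Before RNA extraction both lines spent 6 h in medium that N202.1A cells, a mouse mammary cancer line, had conditioned, so no array shows cells without that medium. Each line was represented by 3 biological replicates, hybridized as single-color Agilent SurePrint Mouse G3 arrays. The vector and promoter that drive SOD3, and whether a line is 1 clone, are not given in the sources used here. The study compared the lines to find how SOD3 changes endothelial transcription in a medium that resembles the tumor setting.

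A peroxiredoxin reduces a peroxide with a reactive cysteine, which is oxidized in turn. Thioredoxin reduces most of these enzymes back, and thioredoxin reductase, a selenoprotein that uses NADPH, recycles thioredoxin. The cell keeps a cytosolic set (Prdx1, Prdx2, Txn1, Txnrd1) and a mitochondrial set (Prdx3, Txn2, Txnrd2). Prdx4 works in the endoplasmic reticulum, and Prdx5 is found in mitochondria, peroxisomes and the cytosol. Prdx6 has a single reactive cysteine that glutathione reduces, and it also acts on phospholipids. Endothelial cells are exposed to peroxide from blood and from their own oxidases, and Txn1 and Prdx1 are known as parts of their defense.

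The probes are 60 bases long, and the results turn on where 8 of them lie. Those of Prdx5 and Prdx6 are shown because probes of the same gene gave different readings, and those of Prdx4 and Txnrd1 because they lie at the edge of a region of the array described next. Of 6 of the 8, the last 30 bases are printed, and 2 are printed whole. Capitals mark AATAAA, the signal at which a transcript is cut and given its poly(A) tail, read in the strand of the probe only.
Prdx5 A_55_P2033255, in the middle of the array: tctgcAATAAAcagtttaatttgtgtcttt
Prdx5 A_55_P1979463, elsewhere: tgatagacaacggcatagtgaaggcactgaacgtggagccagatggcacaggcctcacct
Prdx6 A_55_P2176731, in the middle of the array: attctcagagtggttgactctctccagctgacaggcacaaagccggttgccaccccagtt
Prdx6 A_55_P2176729, elsewhere: atccagtactggggcctgaggatgtcagct
Prdx6 A_55_P2103561, elsewhere: ttcaacaAATAAAatcctgatcagaaaacc
Prdx6 A_52_P388359, elsewhere: ggcctcattagtgtaagctctgagatagtg
Prdx4 A_55_P1979457, at the edge of the middle: tttggaccttctcAATAAAggtcattgtgt
Txnrd1 A_51_P320614, at the edge of the middle: aacaacagacagtgtagggtaactaatcat

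AATAAA stood in 7 of the 19 member probes (36.8%), against 10.1% of all 55681 probes on the array. The Prdx5 probe in the middle was designed on chromosome 19 from 6981197 to 6981256, and the other Prdx5 probe on the same chromosome from 6981371 to 6981430. The Prdx6 probe in the middle was designed on chromosome 1 from 163173715 to 163173774, and the other 3 Prdx6 probes start further along the transcript. Prdx6 A_52_P388359 begins 425 bases downstream of the Prdx6 probe that holds AATAAA, and it was well above background on no array. The annotation of the Prdx6 probe in the middle also lists an accession of Prdx6b, a related sequence, and the transcripts cannot be told apart with it. The probe of Prdx6b itself was well above background on none of the 6 arrays.

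Where a spot was printed matters for the values that follow. Each array has 384 rows and 164 columns, and the 6606 non-control spots of a central block of 128 rows and 55 columns, called here the middle of the array, read dim on the 1G11-mock arrays. On the slide, row 2 held every 1G11-mock array and row 1 every 1G11-SOD3 array, and line and slide row therefore cannot be told apart. The array was divided into blocks of 16 rows by 8 columns, and the median log2 difference (1G11-SOD3 minus 1G11-mock) of a block ran from -0.78 to 3.0. A position adjustment, in which a smooth surface over row and column was taken off each array, lowered the SD of that difference among copies of the same probe from 0.5463 to 0.206. These copies were held out of the fitted surface, but its window was chosen for the lowest SD among them. This SD is therefore not an independent check. A pair of member probes, 1 of Prdx5 and 1 of Prdx6, lie in the middle and are reported apart, and position-adjusted values stand beside the others.

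**Figure D1:**
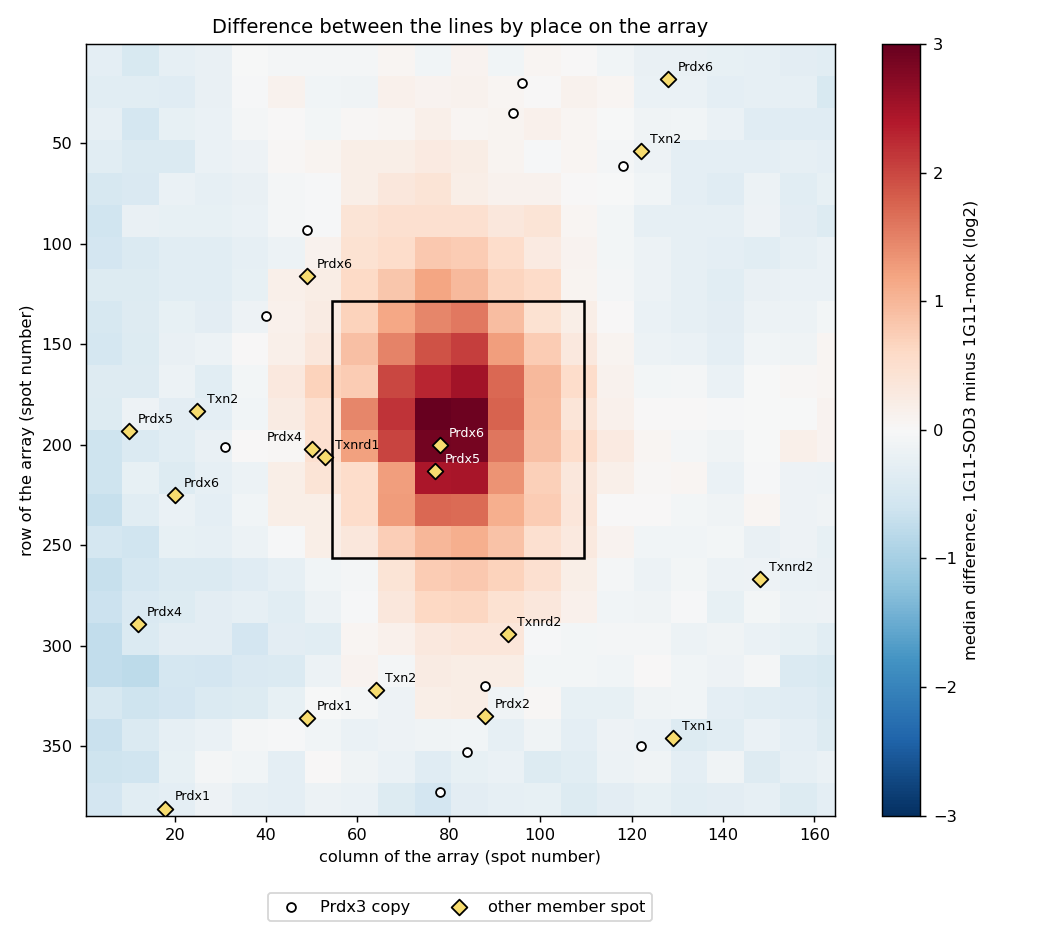
Median log2 difference between the lines (1G11-SOD3 minus 1G11-mock) in array blocks of 16 by 8 spots (rows by columns), where spots counted if above background on 3 or more arrays. Horizontal and vertical axes give the spot's column and row, the box is the middle of the array, diamonds are member spots and circles the 10 copies of the Prdx3 probe. The blocks run from -0.78 to 3.0, and the Prdx5 and Prdx6 spots inside the box lie on blocks well above 0.

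Between 34.2% and 43.8% of spots per array were well above background and none was saturated. The number of arrays, 3 per line, limits the precision of each difference. In bulk samples such as these, fewer cells of a type and less RNA per cell cannot be told apart. Sod3, the gene that was overexpressed, has its spot in the middle too and read 13.61, 12.66 and 9.86 (normalized log2 intensity) on the 1G11-mock arrays and 16.37, 16.30 and 16.26 on the 1G11-SOD3 arrays. Its log2 fold change was 4.27 (limma, adjusted p = 0.00786) and 2.76 after position adjustment (adjusted p = 0.0172), and without 1G11-SOD3 replicate 3 it was 4.29 with an adjusted p of 0.0518. It was 3.17 without 1G11-mock replicate 3 and 5.05 without 1G11-mock replicate 1. Of 14 endothelial markers, 6 were well above background by no probe, namely Cdh5, Emcn, Erg, Robo4, Tek and Tie1. Summed over the 14, intensity ran from 23000 to 30700 on the 1G11-mock arrays and from 16800 to 20900 on the others. Most of it came from Eng (mean of 13.81 against 12.76, log2 fold change of -1.05) and Kdr (12.89 against 12.39, -0.51), neither called. The other Kdr probe, printed 10 times, was well above background on no array. Egfl7 was called higher (log2 fold change of 1.82, and 1.05 after position adjustment, where it was no longer called). Its spot lies in row 123 and column 72, near the edge of the middle, in a block with a median difference of 0.83. Vwf was called lower (-1.65 and -1.38). The Egfl7 call was also lost without 1G11-mock replicate 2 (1.90, adjusted p = 0.0658), 1G11-mock replicate 3 (1.52, 0.0565), 1G11-SOD3 replicate 1 (1.61, 0.0754) or 1G11-SOD3 replicate 2 (1.69, 0.0612).

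Markers of other cell types were read as well, and mainly the mesenchymal ones moved with the lines. Of 4 mesenchymal markers, 3 were called higher in 1G11-SOD3 cells, and the 4 together gave an intensity of 2840 to 5980 on the 1G11-mock arrays against 27300 to 35600. These were Col1a1 (log2 fold change of 3.1, and 2.48 after position adjustment), Acta2 (3.01 and 2.60) and Pdgfrb (2.39 and 2.37), whereas Des was well above background on no array. The 6 epithelial markers summed to 1260 to 1320 on the 1G11-mock arrays against 6900 to 13100. This difference came almost wholly from Krt14, the 1 called, whose spot lies in the middle (4.82 and 2.12). The others lay between -0.24 (Epcam) and 0.38 (Krt5), and Epcam and Krt18 were well above background on no array. With the middle left out, where Krt14 has no value, 0 epithelial markers were called. The 4 hematopoietic markers summed to 17300 to 24300 and 18900 to 23900, none was called by limma and 0 had an unadjusted p under 0.05. Ptprc and Cd68 were well above background on no array, and Cd3e and Itgam on all 6. Most of the sum came from 1 Itgam probe (mean of 14.2 in 1G11-mock and 14.19 in 1G11-SOD3). The other Itgam probes, A_55_P1977926 and A_55_P1977929, were well above background on no array. The part of these differences in the values of the member genes was not tested.

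A probe was called when its adjusted p (limma, Benjamini-Hochberg over all probes) was under 0.05 and its fold change exceeded 2. Of the 19 member probes, 2 were called higher in 1G11-SOD3 cells, 1 of Prdx5 and 1 of Prdx6, and 0 were called lower. Over all probes, 1.87% were called higher and 1.06% lower. Both called probes belong to the middle, where 11.6% of the probes were called higher. Of the other 17 member probes 0 were called, at percentages of 0.644 higher and 1.18 lower for all probes outside the middle, and 3 of the 17 had an unadjusted p under 0.05, where 12.7% of all probes outside the middle did. The median log2 fold change of these 17 was 0.03, with a range from -0.77 to 1.17, and the median over all probes outside the middle was -0.06. Among probes outside the middle that were above background on at least 1 array of each line, the median was 0.20 for 13 member probes. It was -0.16 for all 18305 such probes, and after position adjustment these medians were 0.21 and 0.04. The groups did not overlap for 2 of the 17 in the direction of higher and for 1 in the direction of lower, where 8.23% and 11.4% of all probes outside the middle did the same. After position adjustment 1 member probe was called higher and 0 lower, beside 1.09% and 2.69% of all probes. Of the 1499 probes then called lower, 1024 lie in the middle and were above background on fewer than 3 arrays.

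**Figure D2:**
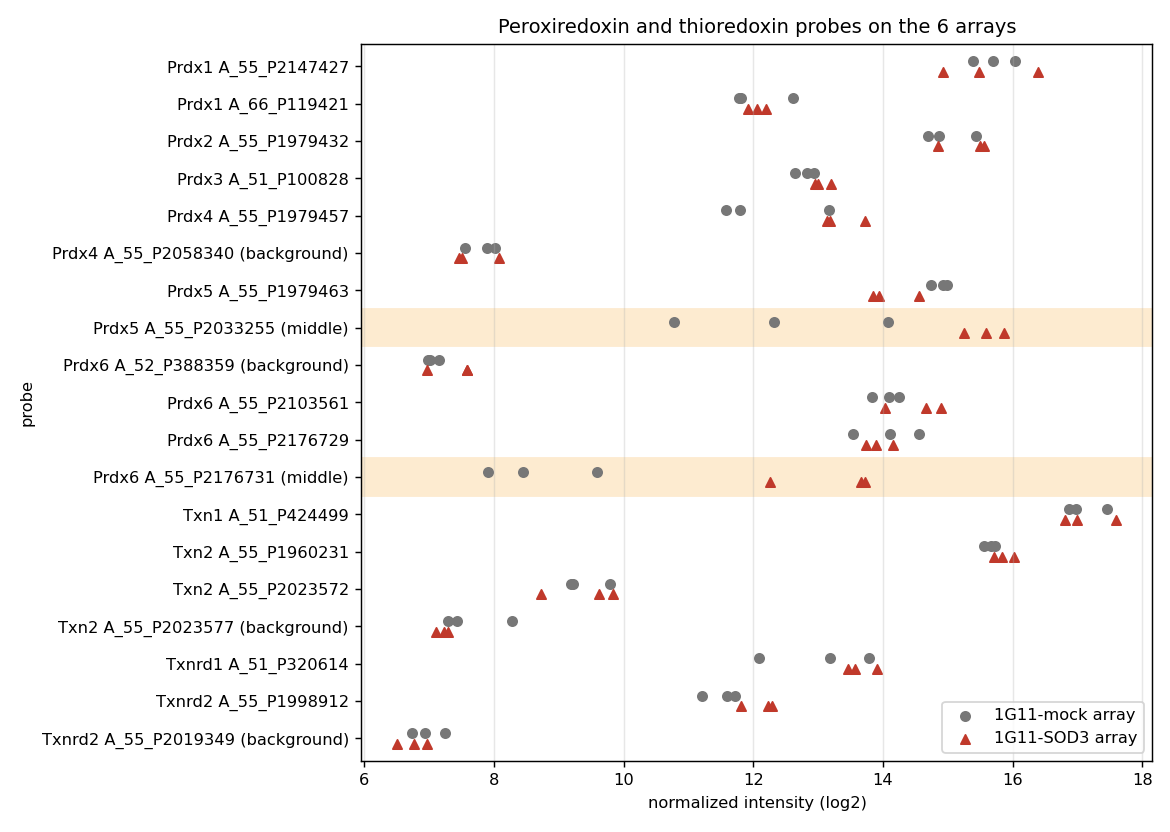
Normalized log2 intensity (horizontal axis) of the 19 member probes (vertical axis) on the 3 1G11-mock arrays (circles) and the 3 1G11-SOD3 arrays (triangles). The shaded probes of Prdx5 and Prdx6 are those of the middle and have the widest gaps between the lines. Probes marked as background were well above it on no array or on 1.

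**Figure D3:**
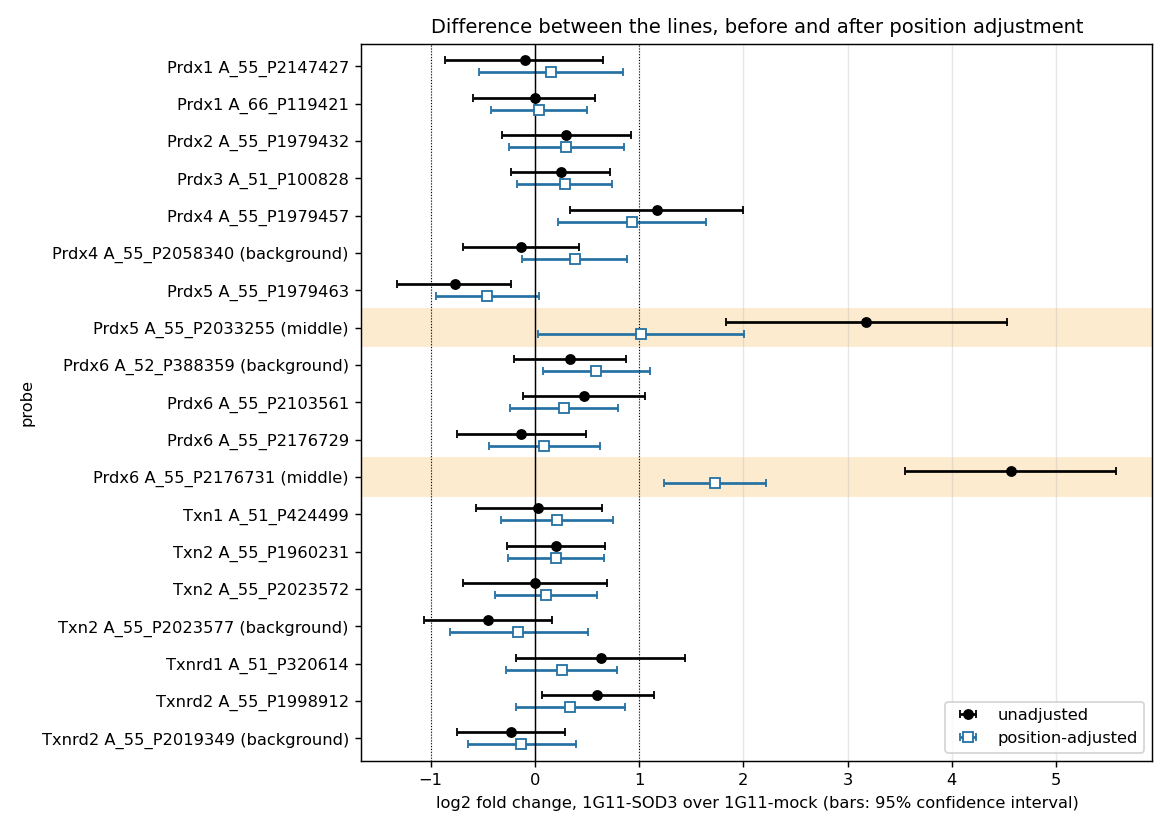
Log2 fold change of each member probe (1G11-SOD3 over 1G11-mock, n = 3 per line) with its 95% confidence interval, unadjusted (filled circles) and position-adjusted (open squares). Dotted lines mark a 2-fold difference. The shaded probes in the middle of the array fell from 3.18 to 1.02 (Prdx5) and from 4.57 to 1.73 (Prdx6) with the adjustment, and the other 17 lay between -0.77 and 1.17 without it.

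The cytosolic peroxiredoxins Prdx1 and Prdx2, 2-cysteine enzymes that Txn1 reduces, were bright on all arrays and neither was called. Prdx1 A_55_P2147427 read 16.03, 15.38 and 15.69 in 1G11-mock and 15.48, 14.93 and 16.39 in 1G11-SOD3 cells. The highest and the lowest of these 6 values are both 1G11-SOD3 arrays, and the difference of -0.10 (95% confidence interval from -0.86 to 0.65, adjusted p = 0.930) was smaller than the spread within either line. The second Prdx1 probe, A_66_P119421, read 11.78, 11.81 and 12.61 against 12.20, 11.91 and 12.06, with a difference of 0.00 (-0.59 to 0.58, adjusted p = 0.996). Prdx2 read 14.69, 14.87 and 15.43 against 15.50, 14.84 and 15.55. Its difference of 0.30 had an interval from -0.32 to 0.92 (adjusted p = 0.692) and remained 0.30 after position adjustment.

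Prdx3, the peroxiredoxin of the mitochondrial matrix, was measured with the most spots, since its probe is printed 10 times at scattered places and none of the 10 lies in the middle. The mean of the copies was 12.64, 12.93 and 12.83 on the 1G11-mock arrays and 12.99, 12.95 and 13.20 on the 1G11-SOD3 arrays. The lines did not overlap, but the gap between them was narrow, and the log2 fold change was 0.25 (95% confidence interval from -0.23 to 0.72, adjusted p = 0.668), or 1.19-fold. Within an array the copies had an SD of 0.22 to 0.59, the widest on 1G11-SOD3 replicate 1, where they ran from 11.73 to 13.52. The difference between the lines taken copy by copy ran from -0.34 to 0.52 and was above 0 for 9 of the 10 copies. After position adjustment it ran from 0.04 to 0.46 and was above 0 for all 10, with a log2 fold change of 0.29 for their mean (adjusted p = 0.453). The copies share their array and are not replicates, so the count of copies is a description of the arrays. They were also among the copies on which the window of the position adjustment was chosen.

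**Figure D4:**
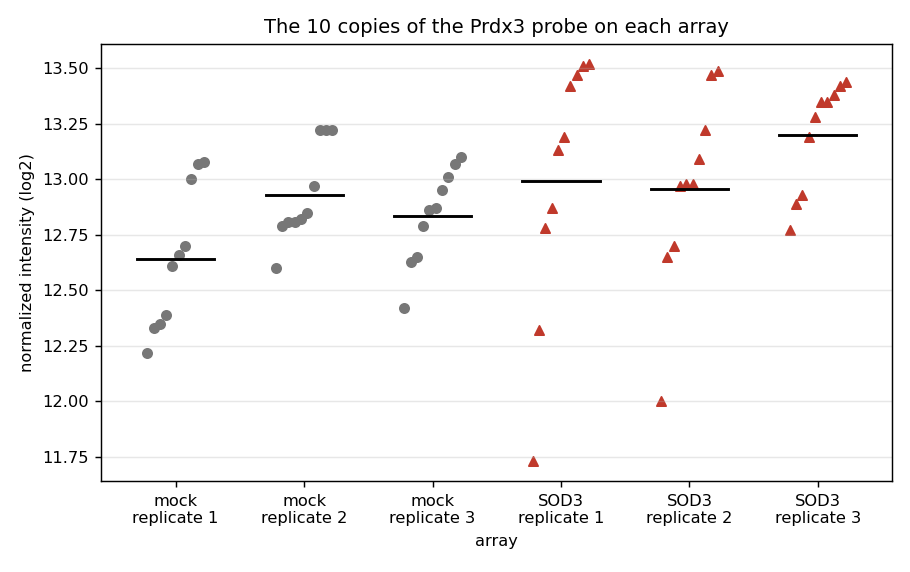
Normalized log2 intensity (vertical axis) of the 10 copies of the Prdx3 probe on each of the 6 arrays (horizontal axis), sorted within an array, with the mean as a bar. The means are 12.64 to 12.93 on the 1G11-mock arrays and 12.95 to 13.20 on those of 1G11-SOD3, and the copies of each array spread over more than that gap.

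Prdx4, the peroxiredoxin of the endoplasmic reticulum, had the largest difference of the members outside the middle. Its probe A_55_P1979457 read 13.17, 11.58 and 11.80 in 1G11-mock and 13.72, 13.14 and 13.18 in 1G11-SOD3 cells. The lines overlapped by 1 array, 1G11-mock replicate 1, which read above 1 of the 1G11-SOD3 arrays. Prdx4 thus had a log2 fold change of 1.17 (95% confidence interval from 0.34 to 2.0, adjusted p = 0.155), or 2.24-fold, and was not called. With the replicate number as a block, it was 1.17 with an adjusted p of 0.0274 and was called. It was also called without 1G11-mock replicate 1 (1.66, adjusted p = 0.0103), while it was 0.86 without 1G11-mock replicate 2 (adjusted p = 0.424), 0.98 without 1G11-mock replicate 3 or 1G11-SOD3 replicate 1, and 0.66 with the scanner's processed signal (adjusted p = 0.256). The spot lies in row 202 and column 50, near the edge of the middle, and 3 of its 115 neighbors, within 12 rows and 6 columns and above background on at least 3 arrays, had a larger difference. The median of these neighbors was 0.31, and after position adjustment Prdx4 stood at 0.93 (0.22 to 1.64, adjusted p = 0.134). The second Prdx4 probe, designed on an Ensembl transcript, was well above background on 1 of 6 arrays and gives no fold.

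Prdx5, the atypical 2-cysteine enzyme, had a probe in each region, of which the 1 in the middle was called higher and the other was not called. The probe in the middle, A_55_P2033255, read 14.07, 12.32 and 10.77 in 1G11-mock and 15.86, 15.25 and 15.59 in 1G11-SOD3 cells. The 1G11-SOD3 arrays lay close together and above all 1G11-mock arrays, which spread widely (12.39 ± 1.65 against 15.57 ± 0.30, SD, n = 3 each). The log2 fold change was 3.18 (95% confidence interval from 1.83 to 4.53, adjusted p = 0.0180), or 9.07-fold, and it was called. The median difference of its 127 neighbors was 2.39, 27 of them had a larger one, and after position adjustment Prdx5 stood at 1.02 (0.03 to 2.01, adjusted p = 0.222) and was not called. The call was also lost without 1G11-mock replicate 2 (adjusted p = 0.0878), without 1G11-SOD3 replicate 1 (0.0659) and without 1G11-SOD3 replicate 3 (0.0882), at log2 fold changes of 3.15, 3.03 and 3.17. The call was kept at 2.37 without 1G11-mock replicate 3 and at 4.02 without 1G11-mock replicate 1, so that the size of the difference rested on these arrays.

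The other Prdx5 probe, A_55_P1979463, lies in row 193 and column 10 and read 14.74, 14.93 and 14.98 in 1G11-mock against 14.55, 13.93 and 13.85 in 1G11-SOD3 cells. All 3 1G11-SOD3 arrays lay below all 1G11-mock arrays, with a log2 fold change of -0.77 (95% confidence interval from -1.32 to -0.23, adjusted p = 0.152), which was not called. Of its 111 neighbors 97 had a higher difference, and after position adjustment it stood at -0.46 (-0.95 to 0.04, adjusted p = 0.275). With the scanner's processed signal it was -0.11 (adjusted p = 0.816). Within each array, the middle probe minus this probe was -0.67, -2.61 and -4.21 on the 1G11-mock arrays and 1.31, 1.32 and 1.73 on the 1G11-SOD3 arrays. The line means of this quantity differed by 3.95 on the log2 scale, and by 1.48 after position adjustment, which is given as a description since the middle was set apart for reading dim on the 1G11-mock arrays.

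Prdx6, the 1-cysteine enzyme, had 1 of its 4 probes called, the 1 in the middle. The probe in the middle, A_55_P2176731, read 9.59, 7.90 and 8.44 in 1G11-mock and 13.66, 12.25 and 13.72 in 1G11-SOD3 cells, and it was well above background on 1 of 3 and 3 of 3 arrays. The lines did not overlap (8.64 ± 0.87 and 13.21 ± 0.83, SD, n = 3 each), and the log2 fold change was 4.57 (95% confidence interval from 3.55 to 5.58, adjusted p = 0.000476). Since 2 of the 3 1G11-mock readings were not above background, the size of this difference rests largely on readings at background. Its 118 neighbors had a median difference of 2.84 and a range from -0.05 to 5.23, and 6 of them exceeded it. After position adjustment it was 1.73 (adjusted p = 0.00290), and with the surface taken only off the signal above the offset, an alternative chosen after seeing the data, 1.89 (adjusted p = 0.00272), and it was called in both. The surface was fitted to spots above background on at least 3 arrays. After the plain position adjustment 1024 dim probes of the middle were called lower, so that 1.73 is not a sound measure of a probe this near background. With the surface taken only off signal above the offset, 788 probes were called lower in all, and dim probes of the middle were not counted apart. The value of 1.89 rests on the same surface and is given with the same caution.

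The Prdx6 probes elsewhere were not called. A_55_P2103561 read 14.24, 14.09 and 13.83 in 1G11-mock and 14.90, 14.66 and 14.03 in 1G11-SOD3 cells, so that the lines overlapped, and its log2 fold change was 0.47 (-0.11 to 1.06, adjusted p = 0.468) and 0.28 after position adjustment. A_55_P2176729 read 13.53, 14.10 and 14.55 against 14.16, 13.89 and 13.74, with a log2 fold change of -0.13 (-0.75 to 0.49, adjusted p = 0.884). Within each array, the middle probe minus either of these 2 ran from -6.20 to -3.94 for 1G11-mock and from -2.41 to -0.02 for 1G11-SOD3. As a description, for the same reason as with Prdx5, the line means differed in this by 4.09 against A_55_P2103561 and by 4.69 against A_55_P2176729, and the 2 probes elsewhere differed from each other by 0.60.

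**Figure D5:**
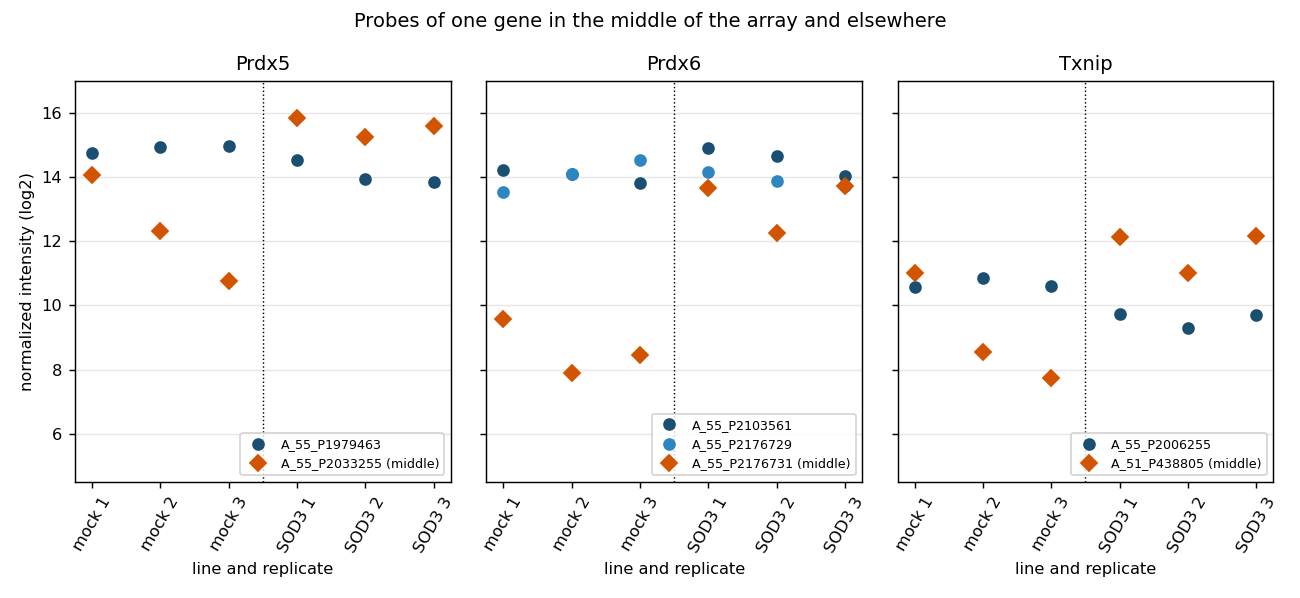
Normalized log2 intensity (vertical axis) of the probes of Prdx5, Prdx6 and Txnip on the 6 arrays (horizontal axis), with diamonds for the probe in the middle of the array and circles for probes elsewhere that were above background. In each gene the middle probe is lower on the 1G11-mock arrays, whereas the probes elsewhere move little for Prdx6 and are lower in 1G11-SOD3 cells for Prdx5 and Txnip.

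No probe of the thioredoxins was called. Txn1, the cytosolic thioredoxin, read 16.97, 16.86 and 17.46 in 1G11-mock against 16.80, 16.99 and 17.60 in 1G11-SOD3 cells. The difference was 0.03 (95% confidence interval from -0.57 to 0.64, adjusted p = 0.975). Txn2, the mitochondrial thioredoxin that serves Prdx3, read 15.67, 15.56 and 15.72 against 16.02, 15.83 and 15.71, with the lines overlapping by 1 array and a log2 fold change of 0.20 (-0.27 to 0.67, adjusted p = 0.734). Position adjustment left Txn2 at 0.20 and moved Txn1 to 0.21. A Txn2 probe designed on a cDNA clone, A_55_P2023572, was above background on all 6 arrays, with a difference of 0.00 (adjusted p = 0.997). The other cDNA clone probe of Txn2 was well above background on no array.

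Both thioredoxin reductases read higher on average in 1G11-SOD3 cells and neither was called. Txnrd1, the cytosolic enzyme, read 13.78, 13.18 and 12.09 in 1G11-mock and 13.91, 13.57 and 13.46 in 1G11-SOD3 cells, where 1G11-mock replicate 3 stood below the rest and the lines overlapped. The difference was 0.63 (-0.18 to 1.44, adjusted p = 0.487). It was 0.17 without 1G11-mock replicate 3, 1.02 without 1G11-mock replicate 1, and 0.03 with the scanner's processed signal. The spot lies in row 206 and column 53, next to the middle, its 117 neighbors had a median difference of 0.44, and after position adjustment it stood at 0.26 (adjusted p = 0.580). Txnrd2, the mitochondrial enzyme, read 11.59, 11.72 and 11.20 against 12.29, 12.22 and 11.81, without overlap between the lines. The difference was 0.60 (0.07 to 1.14, adjusted p = 0.277), or 1.52-fold, and 0.34 after position adjustment (adjusted p = 0.441). On none of the 6 arrays was the second Txnrd2 probe well above background.

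Partners of thioredoxin were counted once per gene. By the brightest probe of each gene, 2.13% of 36800 genes were called higher and 1.27% lower, and of 20 thioredoxin partners and related oxidoreductases 0 were called higher and 1 was called lower. The median log2 fold change of these 20 genes, 0.09, compared with -0.04 over all genes. Txnip entered this count with its brightest probe, which lies in the middle and was not called, while its other probe was called lower. The 1 gene in the count was Sesn2, a sestrin known as a stress-induced regulator of mTORC1, which read 11.98, 12.19 and 12.09 in 1G11-mock and 10.83, 11.18 and 10.85 in 1G11-SOD3 cells. Sesn2 thus stood at -1.14 on the log2 scale (adjusted p = 0.0186), and at -0.82 after position adjustment (adjusted p = 0.102), no longer called. Its call was also lost without 1G11-mock replicate 2, 1G11-SOD3 replicate 1 or 1G11-SOD3 replicate 3, at -1.09, -1.07 and -1.08 (adjusted p-values of 0.0776, 0.0874 and 0.0791), and with the processed signal (-0.86, 0.0743) or 75th percentile scaling (-0.98, 0.0620), and at -0.97 with the middle dropped it fell short of 2-fold.

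Txnip, the protein that binds thioredoxin and blocks its active site, had a probe in each region too. Its probe in the middle, A_51_P438805, read 11, 8.55 and 7.75 in 1G11-mock and 12.14, 11.02 and 12.18 in 1G11-SOD3 cells, a difference of 2.68 on the log2 scale (adjusted p = 0.0544), and of 0.56 after position adjustment (adjusted p = 0.488). It was called with the replicate number as a block (adjusted p = 0.00849) and without 1G11-mock replicate 1 (3.63, adjusted p = 0.000971). The other Txnip probe, A_55_P2006255, lies in row 2 and column 30 and read 10.59, 10.86 and 10.61 against 9.72, 9.31 and 9.69. It was called lower, at -1.11 (adjusted p = 0.0236), and after position adjustment stood at -0.90 (adjusted p = 0.0646) and was not called. Without 1G11-mock replicate 2, or without any of 1G11-SOD3 replicates 1, 2 and 3, its adjusted p was 0.0632 to 0.111 and it was not called.

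Srxn1, which restores overoxidized 2-cysteine peroxiredoxins, was not called (log2 fold change of -0.39, adjusted p = 0.499), with all 1G11-SOD3 arrays (13.58, 13.47 and 13.02) below all 1G11-mock arrays (13.85, 13.76 and 13.62). Txnrd3, the reductase best known from testis, had its only probe in the middle and stood at 0.58 (adjusted p = 0.447), and at 0.29 after position adjustment. Of 16 thioredoxin-fold proteins of the endoplasmic reticulum, which share their compartment with Prdx4, none was called in either direction by limma, 3 had an unadjusted p under 0.05 (15.8% of all genes did), and their median log2 fold change was 0.03. NRF2 is the factor that induces Prdx1, Txn1, Txnrd1 and Srxn1 under oxidative stress. Of 17 genes, those of NRF2, its inhibitor Keap1 and its other targets, none was called and the median was -0.12. Of the 17, 7 lay above 0 and 10 below. An unadjusted p under 0.05 was found for 7, which went both ways, from -1.11 to 1.30. The highest of them, Keap1, has its spot in the middle. Of 6 genes of selenoprotein synthesis, on which thioredoxin reductases depend, none was called, 3 had an unadjusted p under 0.05, and the median was 0.85.

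After position adjustment 1 gene of the NRF2 list was called lower and 1 of the selenoprotein list higher, where 1.32% of all genes were called higher and 2.75% lower, and both are named for that reason after their values were seen. Nfe2l2, which encodes NRF2, read 14.96, 14.73 and 14.56 in 1G11-mock and 13.11, 13.68 and 14.13 in 1G11-SOD3 cells, without overlap. The log2 fold change was -1.11 (adjusted p = 0.0600), and -1.03 with an adjusted p of 0.0382 after position adjustment. Nfe2l2 was called in 3 of the 20 alternatives. Among these were 0 of the fits with 1 array left out, where it stood at -1.36 to -0.85. With the processed signal it was -0.69 (adjusted p = 0.145). Eefsec, the elongation factor that brings selenocysteine to the ribosome, read 11.29, 11.79 and 11.48 against 12.10, 13.03 and 12.33. Its log2 fold change was 0.97 (adjusted p = 0.103), and 1.07 with an adjusted p of 0.0492 after position adjustment. It was 1.06 with an adjusted p of 0.0558, not called, when the surface was taken only off signal above the offset. Eefsec was called in 3 of the 20 alternatives, also with the processed signal (1.15, adjusted p = 0.044) and 75th percentile scaling (1.14, adjusted p = 0.036). With 1 array left out Eefsec stood at 0.70 to 1.16 and was called in 0 of the fits. The median of the selenoprotein list fell by adjustment to 0.48, and 2 of its 6 genes lie in the middle of the array.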

How the data were processed

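RNA from 3 1G11-mock and 3 1G11-SOD3 samples was measured on 6 single-color Agilent arrays of 1 slide. The authors deposited, per array, the output of Feature Extraction 10.7.3.1, with spot and local background intensity not normalized between arrays, and 1 series table on the log2 scale, made by normexp background correction (offset of 50) and quantile normalization. All values here were computed from the deposited intensity columns, and the deposited log2 table served as an alternative.

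The mean spot intensity was corrected with normexp on the local background median (offset of 50), taken to log2 and quantile normalized without control spots (limma 3.58.1, R 4.3.3). Outlier spots were left out and copies of a probe averaged. Probes of a gene were kept apart. A gene of a list was its brightest probe. Lines were compared with limma (lmFit, eBayes) and Benjamini-Hochberg adjustment over 55681 probes, and called past 2-fold with an adjusted p below 0.05. The position adjustment took a moving-window median of each array's deviation from the mean of the 6 (25 rows by 13 columns, chosen among 6 windows, 20527 spots fitted, probes printed 10 times held out) off each array before quantile normalization.

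The members and gene lists were chosen with earlier results of these data known. The genes named are all members, Sod3, Txnip, Srxn1 and Txnrd3, and of each list the called genes, at most 5. Symbols came from RefSeq by accession, or from the array annotation. The replicate number of the titles was tested as a pairing: over 16279 probes above background on all arrays, deviations of same-numbered arrays from their group means correlated at 0.165, 0.103 and 0.157 (replicates 1, 2 and 3), all above 0.1, and other pairs at -0.168 to 0.055. The fit was tested on simulated data, where it found 143 of 200 changed probes and called 7 others. These counts describe the simulated data only. Figures were made with Python 3.11.15 and matplotlib 3.10.9.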

Additional observations from a re-analysis of the deposited data

How the results depend on the processing

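Of the 2 member probes called higher, 1 remained with no background correction (Prdx6), with the position adjustment (Prdx6) and with the surface taken only off signal above the offset (Prdx6), and 0 once spots of the middle were dropped, since the Prdx5 and Prdx6 probes there then have no value. Leaving out each array in turn gave 1 to 3. The number was 3 with 75th percentile scaling (Prdx4 at 1.34, adjusted p = 0.0271) and with the replicate block (Prdx4 at 1.17, adjusted p = 0.0274), where Txnip A_51_P438805 (2.68, adjusted p = 0.00849) was called too and no other call of a named probe changed. No member was called lower under any of the 20 alternatives. Over all probes, 1040 were called higher and 589 lower, and 1200 and 9918 with the processed signal, whose median log2 fold change was -0.52 against -0.03, and 1516 and 1082 with 75th percentile scaling (median -0.33). These counts were 655 and 401 with no background correction, 815 and 391 with an offset of 16, 1452 and 800 with the replicate block, 412 and 356 without the middle, 605 and 1499 position-adjusted, 473 and 788 with the surface off signal above the offset, and 484 to 1277 and 282 to 517 with 1 array left out. Calls were higher rather than lower in 63.8% of cases, 10.8% with the processed signal, 53.6% without the middle and 28.8% position-adjusted; the cause was not tested.

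The sign turned only for uncalled differences. Prdx1 A_55_P2147427 (-0.10) stood at 0.22 with the processed signal, 0.06 with 75th percentile scaling, 0.01 without the middle and 0.15 under both position surfaces, and at -0.50 to 0.23 with 1 array left out. Prdx1 A_66_P119421 (0.00) stood at 0.34, 0.17, 0.15 and 0.04 in that order, at 0.10 with cyclic loess, and at -0.15 to 0.27. Prdx6 A_55_P2176729 (-0.13) stood at 0.39 with the processed signal, 0.05 with 75th percentile scaling, 0.09 under both surfaces, and -0.39 to 0.12. Txn2 A_55_P2023572 (0.00) stood at 0.00 with no background correction, 0.08 with cyclic loess, 0.16 without the middle, 0.11 position-adjusted, 0.06 with the other surface, and -0.23 to 0.33. Txn1 (0.03) stood at -0.01 with median pixel intensity, 0.00 in the deposited table, and -0.21 to 0.21. Of the background probes, Prdx4 A_55_P2058340 (-0.13) stood at 0.03 with the processed signal, 0.38 position-adjusted and 0.29 with the other surface, and Prdx6 A_52_P388359 (0.34) at -0.27 with the processed signal and -0.14 with 75th percentile scaling. Dim probes left out removes 4 members. A probe near background, and 3 arrays per line, limit what can be seen.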
